A study of Mus musculus with 6 samples.

Results

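The 8 genes described here are common reference genes for relative quantification, *Actb*, *Actg1*, *Gapdh*, *Ppia*, *Hprt*, *Tbp*, *Polr2a* and *B2m*, found by their symbols in the count table. All 8 were present, among 55487 genes in the table, of which 25015 had at least 1 read. All 8 passed the filter on low counts, which left 14531 genes to be tested. The RNA sequencing came from mouse pulmonary artery smooth muscle cells (mPASMCs), a commercial primary culture, transfected with a control siRNA (si-NC) or with an siRNA against *Snhg18* (si-*Snhg18*), a long noncoding RNA. Each group had 3 libraries, no agent other than the siRNA is named for them, and the oxygen level of the sequenced cells is not given in the sources used here. The study normalized its qRT-PCR of mouse gene expression to β-actin, the product of *Actb*, and that of its RNA stability assays to 18S rRNA. The libraries held 18097718 to 25988746 counted reads, with si-*Snhg18* 3 the smallest, and the labels do not say that they were separate cultures, so the p-values measure only the spread between these libraries, which may be technical. Smooth muscle markers summed to 1994 to 2134 CPM in si-NC and 1373 to 2085 in si-*Snhg18*. Endothelial markers summed to 12.4 to 15.4 CPM over all libraries and leukocyte markers to 5.92 to 12.2. Epithelial markers summed to 7.2 to 22.7 CPM in si-NC and 1.2 to 7.4 in si-*Snhg18*. The fibroblast list summed to 485 to 560 CPM in si-NC and 355 to 464 in si-*Snhg18*, mostly from *Pdgfra*.

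The siRNA target was checked first. *Snhg18* stood at 23.5, 22.4 and 22.2 CPM (read counts divided by library size, with TMM library factors) in si-NC and at 10.6, 11.2 and 9.97 in si-*Snhg18*. Every si-*Snhg18* library lay below every si-NC library, and the log2 fold change was -1.10 with an SE of 0.10 (adjusted p = 0.00727, edgeR's quasi-likelihood test with Benjamini-Hochberg adjustment over all genes tested).

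In relative quantification a target transcript is divided by a reference transcript from the same sample, which removes differences in input and in reverse transcription. The quotient then carries any change of the reference with the opposite sign. The usual reference genes belong to different parts of cell biology, so that their levels need not move together: the cytoskeleton (*Actb*, *Actg1*), glycolysis (*Gapdh*), protein folding (*Ppia*), purine salvage (*Hprt*), transcription (*Tbp*, *Polr2a*) and antigen presentation (*B2m*). The values below are sequencing counts, and no qRT-PCR values were analysed. In these bulk libraries, fewer cells of a type and less RNA per cell cannot be told apart.

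None of the 8 genes passed an adjusted p under 0.05 in the edgeR fit, in which 7.36% of all tested genes did. At an unadjusted p under 0.05 there were 4, against 24.9% of all tested genes, and DESeq2 called 2, *Actg1* and *B2m*, against 13.7% of the genes to which it gave an adjusted p. With the replicate number as a block (libraries of the same number compared with each other), 4 of the 8 passed, against 27.2% of all tested genes: *Actb* and *Actg1* were lower in si-*Snhg18*, and *B2m* and *Polr2a* were higher. DESeq2 with the block called the same 4 genes, against 22.9% of all genes with an adjusted p. The CPM values of the groups did not overlap for these 4 genes, as was the case for 30.9% of all tested genes. The direction of each member was the same with RLE factors, with library totals alone and with factors from all 8 genes together, and that of *Ppia* turned when si-*Snhg18* 2 was left out. Without si-*Snhg18* 2, edgeR called 4 members, *Actb*, *Actg1*, *Gapdh* and *Polr2a*, against 22.1% of all genes tested in that fit.

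**Figure D1:**
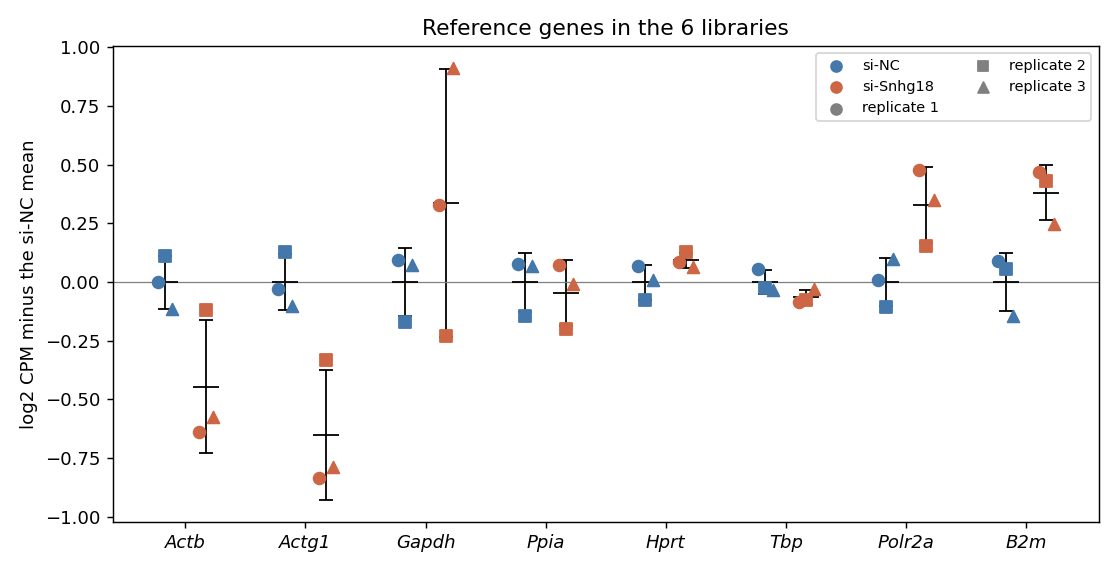
Log2 CPM of each reference gene in each library, minus its si-NC mean. Circles, squares and triangles are replicates 1, 2 and 3, blue is si-NC, orange is si-Snhg18, and the bars are the mean ± SD of 3 libraries. The si-Snhg18 libraries lie below all si-NC libraries for Actb and Actg1 and above them for B2m and Polr2a, while the si-Snhg18 libraries of Gapdh lie on either side of the si-NC mean.

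The cytoplasmic actins form the filaments of the cell cortex and of stress fibres, and differ in only a few residues at the start of the protein. *Actb* (chr5:142903115-142906754, minus strand, GRCm38) encodes β-actin and *Actg1* (chr11:120345690-120348542, minus strand) encodes γ-actin. The first 60 coding bases are shown because the codons of those residues lie there, with the 9 bases that differ between the genes in capitals.
Actb, chr5:142905627-142905686, minus strand: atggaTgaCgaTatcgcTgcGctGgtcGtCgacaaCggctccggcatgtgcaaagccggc
Actg1, chr11:120348032-120348091, minus strand: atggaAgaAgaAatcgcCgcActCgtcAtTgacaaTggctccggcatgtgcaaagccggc
Over the whole coding sequence 1000 of 1128 bases (88.7%) were identical, and over the ends after the stop codon 44.7% of the aligned positions. Annotated pseudogenes that share at least 100 bases with these genes at 95% identity or more held few reads, 0 at the 3 copies of *Actb* and 1.45% of the family at the 7 copies of *Actg1*, most of them at *Gm12715*. No pseudogene at that identity was annotated for *Hprt*, *Tbp*, *Polr2a* or *B2m*.

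*Actb* had 2944, 3177 and 2717 CPM in si-NC and 1886, 2704 and 1976 in si-*Snhg18*. The groups did not overlap, but si-*Snhg18* 2 lay just below the lowest si-NC library. The mean was 2946 ± 230 in si-NC and 2189 ± 448 in si-*Snhg18* (SD, n = 3), which is 74.3% of the control. The log2 fold change was -0.43 (SE 0.15, 95% interval -0.79 to -0.07), with an adjusted p of 0.143, and of 0.00732 with the block, where the log2 fold change was -0.44. Each si-*Snhg18* library was below the si-NC library of its number, by 0.64, 0.23 and 0.46 on the log2 scale.

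*Actg1* had 1581, 1765 and 1505 CPM in si-NC and 905, 1283 and 935 in si-*Snhg18*. Again the groups did not overlap, and si-*Snhg18* 2 was the highest of its group. The mean of 1041 ± 210 in si-*Snhg18* was 64.4% of the mean of 1617 ± 134 in si-NC (SD, n = 3), and the log2 fold change was -0.64 (SE 0.15, 95% interval -0.99 to -0.28). The adjusted p was 0.055 without the block, 0.00151 with it, and 0.00347 in DESeq2. The 2 actins moved by different amounts: the ratio of *Actb* to *Actg1* reads was 1.86, 1.80 and 1.81 in si-NC and 2.09, 2.11 and 2.11 in si-*Snhg18*. These ratios varied little within a group, with a pooled SD of 0.02 on the log2 scale, against a difference of 0.21 between groups, and an exact two-sided permutation test of 3 against 3 libraries cannot give a p under 0.1.

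*Actg1* is also the only one of the 7 members with a RefSeq promoter entry (GRCm38.p6) whose 250 bases before the transcript start hold a CArG box, the motif bound by serum response factor at many cytoskeletal and smooth muscle genes. It is shown as the region upstream of the member with the lowest ratio of si-*Snhg18* to si-NC, with the motif in capitals at -90 to -81 from the start.
Actg1 promoter, chr11:120348496-120348745, minus strand: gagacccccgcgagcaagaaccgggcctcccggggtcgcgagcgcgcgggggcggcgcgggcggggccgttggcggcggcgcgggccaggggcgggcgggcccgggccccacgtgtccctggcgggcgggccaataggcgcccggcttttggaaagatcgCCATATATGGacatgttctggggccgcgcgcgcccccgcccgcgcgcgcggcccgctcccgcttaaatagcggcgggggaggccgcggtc
Of 32851 promoters searched over the same length, 482 (1.47%) held the motif, which reads as a CArG box on both strands. *Actb* has no entry in that table. The match is a description of letters and was not set against any measurement of binding.

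The other actins and the smooth muscle genes were listed beside them. All 5 tested actins, with *Actb* and *Actg1* counted in, were lower in si-*Snhg18*. Their median log2 fold change was -0.43, the value of *Actb*, against 0.01 over all tested genes. The 3 actins that are not members were all lower, with a median of -0.39. Of the 5, none passed in edgeR (7.36% of all tested genes). At an unadjusted p under 0.05 there were 2 (24.9%), *Actb* and *Actg1* themselves. DESeq2 called 1 (13.7%), *Actg1*, and 3 passed with the block (27.2%), of which 1 was not a member. The largest difference was that of *Acta1*, skeletal α-actin, at -0.84 with an SE of 0.55 (adjusted p = 0.399, and 0.021 with the block). Among 8 smooth muscle markers 7 were lower, and *Acta2* is in this list and in that of the actins. Only 1 passed in edgeR, against 7.36% of all tested genes. This was *Tagln* (transgelin, an actin-binding protein of smooth muscle), which fell by 0.51 on the log2 scale (adjusted p = 0.0427). With the block 5 passed, all lower, against 27.2% of all tested genes. *Smtn* was at 0.004 (adjusted p = 0.975). Most of these markers were thus lower, as the actins were, while their sums given above overlapped between the groups. Their part in the actin levels was not tested.

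*Gapdh* (chr6:125161715-125166467, minus strand) encodes glyceraldehyde-3-phosphate dehydrogenase of glycolysis. It had 204, 170 and 201 CPM in si-NC and 240, 163 and 360 in si-*Snhg18*. The si-*Snhg18* group held both the lowest and the highest library of the 6, so the groups overlapped. Its log2 fold change of 0.41 had the widest interval of the 8 genes, -0.24 to 1.06 (SE 0.27, adjusted p = 0.399), and the adjusted p was 0.136 with the block. Without si-*Snhg18* 3 the log2 fold change was 0.07, and without si-*Snhg18* 2 it was 0.64 with an adjusted p of 0.0446.

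Counts of *Gapdh* are uncertain in another way. The mouse genome holds many processed pseudogenes of *Gapdh*, copies of its spliced mRNA inserted elsewhere, and 91 annotated ones met the same limits. Of these, 83 had reads, and together they took 60790 reads over the 6 libraries against 30478 for *Gapdh* itself. The copies thus held 66.6% of the reads of the family, from 65.5% to 68.6% in single libraries. The copy with the most reads was *Gm5559*, with 14300. Coding bases 404 to 463 of *Gapdh*, of 1080 in the transcript compared, are shown with the same stretch of 4 copies to show how little separates them, with the bases that differ from *Gapdh* in capitals.
Gapdh, chr6:125162977-125163036, minus strand: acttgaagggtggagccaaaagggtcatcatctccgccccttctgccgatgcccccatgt
Gm5559, chr5:95862039-95862098, plus strand: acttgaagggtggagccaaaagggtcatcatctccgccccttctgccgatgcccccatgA
Gm13394, chr2:28934225-28934284, minus strand: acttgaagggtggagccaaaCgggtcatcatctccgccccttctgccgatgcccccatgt
Gm12033, chr11:20335629-20335688, minus strand: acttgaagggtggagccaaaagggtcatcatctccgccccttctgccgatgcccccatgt
Gm7336, chr7:51747022-51747081, plus strand: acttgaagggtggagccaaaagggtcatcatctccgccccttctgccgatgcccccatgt
Counted from the first coding base, *Gm5559* differed from *Gapdh* over its aligned coding bases at T463A alone, *Gm13394* at A424C alone and *Gm12033* at T582C alone, and *Gm7336* matched all 1020 aligned bases. How reads that match several of these loci were assigned is not given in the sources used here. With the copies added to *Gapdh*, the log2 fold change was 0.39 with an adjusted p of 0.371.

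*Ppia* (chr11:6415443-6419817, plus strand) encodes cyclophilin A, a peptidyl-prolyl isomerase that helps proteins fold. It had 654, 560 and 649 CPM in si-NC and 652, 539 and 615 in si-*Snhg18*. The lowest library of each group was number 2, and the groups overlapped almost entirely. The log2 fold change was -0.04 (95% interval -0.29 to 0.20, adjusted p = 0.818). *Ppia* also has processed copies: 20 were annotated, 14 had reads, and they took 33.4% of the reads of the family, nearly all of them at *Gm10123* (42385 reads against 85901 for *Ppia*). Of 16 tested cyclophilins 5 were higher and 11 lower, with a median log2 fold change of -0.10. In edgeR 2 passed, against 7.36% of all tested genes. *Ppib*, cyclophilin B of the endoplasmic reticulum, fell by 0.33 and *Ppid*, cyclophilin 40, by 0.57 on the log2 scale (adjusted p = 0.0368 and 0.0247). With the block 3 cyclophilins passed, all lower, against 27.2% of all tested genes.

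*Hprt* (chrX:52988137-53021659, plus strand) encodes the enzyme that returns hypoxanthine and guanine to the nucleotide pool. Its values were 75.1, 67.8 and 71.9 CPM in si-NC and 76.0, 78.2 and 74.9 in si-*Snhg18*. Only si-*Snhg18* 3 fell inside the range of si-NC, and all 3 libraries of si-*Snhg18* were above the si-NC library of their number, by 0.02, 0.21 and 0.06 on the log2 scale. The log2 fold change was 0.09 (95% interval -0.07 to 0.26, adjusted p = 0.441). Of 15 tested genes of purine salvage 4 were higher and 11 lower, with a median of -0.18. None passed in edgeR, with 2 at an unadjusted p under 0.05 (24.9% of all tested genes) and 2 called by DESeq2 (13.7%), whereas 6 passed with the block (27.2%), 5 of them lower. The largest differences were those of *Nt5e*, the ectonucleotidase CD73, at -1.28 and of *Ampd2*, an AMP deaminase, at 0.55 (adjusted p = 0.294 and 0.317, and 0.00486 and 0.0118 with the block).

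*Tbp* (chr17:15499888-15528379, plus strand) encodes the TATA-binding protein, which nucleates the general transcription factor TFIID on promoters. It was the least abundant of the 8, with 19.9, 18.8 and 18.6 CPM in si-NC and 18, 18.1 and 18.7 in si-*Snhg18*, from 341 to 471 reads a library. The whole range covered a 1.10-fold difference, and si-*Snhg18* 3 lay just inside the si-NC range. Its log2 fold change was -0.06 (95% interval -0.28 to 0.15, adjusted p = 0.697). A transcript of *Tbp* overlaps 1160 bases of *Pdcd2* on the opposite strand, and since the strand setting of the counting is not given in the sources used here, reads of the overlap may belong to either gene. Of 13 tested TFIID subunits 5 were higher and 8 lower, with a median of -0.11. In edgeR 3 passed, against 7.36% of all tested genes. These were the TBP-associated factors *Taf2*, *Taf6* and *Taf11*, which fell by 0.60, 0.63 and 0.74 on the log2 scale (adjusted p = 0.0232, 0.046 and 0.02). With the block 4 subunits passed, against 27.2% of all tested genes.

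*Polr2a* (chr11:69733997-69758637, minus strand) encodes the largest subunit of RNA polymerase II. It had 260, 240 and 277 CPM in si-NC and 360, 288 and 329 in si-*Snhg18*. The groups did not overlap, with si-*Snhg18* 2 closest to si-NC. The log2 fold change was 0.33 (SE 0.10, 95% interval 0.08 to 0.58), with an adjusted p of 0.11, and of 0.0105 with the block. Of 12 tested subunits of the polymerase, with *Polr2a* counted in, 4 were higher and 8 lower, with a median of -0.11. None passed in edgeR, with 5 at an unadjusted p under 0.05 (24.9% of all tested genes) and 1 called by DESeq2 (13.7%). With the block 3 passed (27.2%), 2 of them other than *Polr2a*. The largest differences were those of the small subunits *Polr2l*, at 0.33, and *Polr2k*, at -0.51 (adjusted p = 0.136 and 0.162, and 0.0263 and 0.0777 with the block).

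*B2m* (chr2:122147686-122153083, plus strand) encodes β2-microglobulin, the light chain of MHC class I molecules. It had 465, 454 and 397 CPM in si-NC and 605, 589 and 520 in si-*Snhg18*. The groups did not overlap, and the 3 differences between libraries of the same number were close to each other, 0.38, 0.38 and 0.39 on the log2 scale. The log2 fold change was 0.38 (SE 0.09, 95% interval 0.15 to 0.61), with an adjusted p of 0.0636, of 0.00272 with the block and of 0.0165 in DESeq2. Of 16 tested genes of MHC class I and peptide loading, with *B2m* counted in, 14 were higher and 2 lower, with a median log2 fold change of 0.30. Without *B2m* 13 of 15 were higher, with a median of 0.26. The summed CPM of the list with *B2m* was nonetheless lower, at 3654 to 3830 in si-NC and 2951 to 3313 in si-*Snhg18*. The lower genes, *Calr* and *Pdia3*, were its most abundant. In edgeR 2 passed, against 7.36% of all tested genes. The class I heavy chain *H2-D1* rose by 0.58 (adjusted p = 0.0187) and the chaperone *Calr* fell by 0.76 on the log2 scale (adjusted p = 0.00742). With the block 8 passed, 6 higher and 2 lower, against 27.2% of all tested genes, and 7 of these were genes other than *B2m*.

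Levels of different genes are compared per kilobase of the listed exon length. In si-NC the order was *Actb* (1534 ± 120 CPM per kb, SD, n = 3), *Actg1* (828 ± 68), *Ppia* (531 ± 45), *B2m* (510 ± 43), *Gapdh* (150 ± 15), *Hprt* (55.5 ± 2.9), *Polr2a* (38.4 ± 2.7) and *Tbp* (1.49 ± 0.05). *Ppia* and *B2m* were closer to each other than their SDs, and the other neighbours were further apart than theirs. This order uses the reads of each gene alone, and the reads at the copies of *Gapdh* and *Ppia* given above would raise the levels of these genes and alter the gaps. In si-*Snhg18* the mean was 533 ± 108 CPM per kb for *Actg1*, 514 ± 49 for *Ppia* and 665 ± 53 for *B2m*, so that *B2m* stood above *Actg1*. The listed exon length of *Tbp* is 12794 bases, the longest of the 8, which lowers its value per kilobase. The 8 genes together took 0.461% to 0.650% of the counted reads of a library.

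*Snhg18* was then expressed over each reference gene in turn, as the quotient of the counts in the same library, which needs no library total. Over *Actb*, *Snhg18* had 7.98, 7.04 and 8.16 reads per 1000 *Actb* reads in si-NC and 5.64, 4.12 and 5.05 in si-*Snhg18*. The groups did not overlap, and 63.5% of the control quotient remained. Over *Actg1* 73.3% remained, over *Tbp* 48.8%, over *Ppia* 48.2%, over *Hprt* 43.7%, over *Polr2a* 37.2%, over *Gapdh* 36.9% and over *B2m* 35.8%. The geometric mean of all 8 genes gave 46.9%, and the TMM-scaled CPM 46.7%. The quotients of the groups did not overlap for any of the 8 denominators, and each exact two-sided permutation test gave p = 0.1, the smallest that 3 against 3 libraries allow.

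The denominators also differed in how far the 3 pairs of same-numbered libraries agreed. Over *Hprt* the remaining share was 44.8%, 43.2% and 43.2% in pairs 1, 2 and 3, and the pooled SD of the log2 quotient within groups was 0.05. Over *Actb* the pairs gave 70.7%, 58.5% and 61.9%, with a pooled SD of 0.18. The widest spread was that of *Gapdh*, with 38.5%, 51.9% and 25.1% and a pooled SD of 0.47. Adding the annotated copies moved the share by less than 1 percentage point, to 37.1% for *Gapdh*, 47.7% for *Ppia* and 72.8% for *Actg1*, and the pooled SD of *Gapdh* to 0.42.

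**Figure D2:**
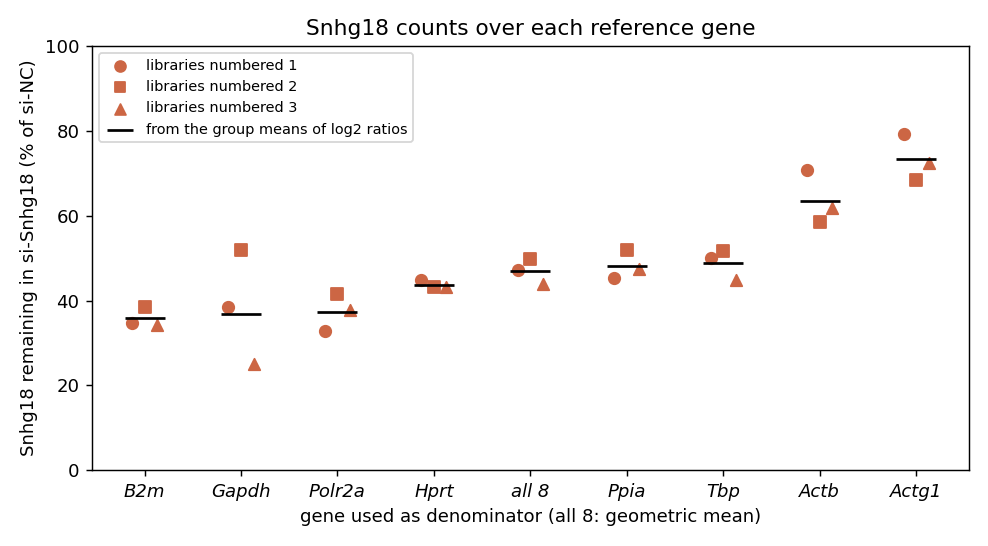
Snhg18 remaining in si-Snhg18, in percent of si-NC, with each reference gene as the denominator. Black lines are from the group means of the log2 quotients, and orange circles, squares and triangles are libraries numbered 1, 2 and 3. The share runs from 35.8% over B2m to 73.3% over Actg1, and the 3 points are closest together over Hprt and furthest apart over Gapdh.

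*Eno3* and *Hnrnpa2b1*, also targets of qRT-PCR in mouse cells, were treated in the same way. *Eno3*, the muscle isoform of the glycolytic enzyme enolase, had a remaining share of 60% over *Actb*, 69.2% over *Actg1*, 46.1% over *Tbp*, 45.5% over *Ppia*, 41.3% over *Hprt*, 35.1% over *Polr2a*, 34.9% over *Gapdh* and 33.8% over *B2m*. The direction was the same with all 8, and the groups did not overlap with any of them. For *Hnrnpa2b1*, which encodes the RNA-binding heterogeneous nuclear ribonucleoprotein A2/B1, the direction depended on the denominator. Its quotient in si-*Snhg18* was 122% of the control over *Actb* (groups overlapping, exact permutation p = 0.2) and 140% over *Actg1* (not overlapping, exact permutation p = 0.1). With the other 6 it was under the control, at 93.3% over *Tbp*, 92.2% over *Ppia*, 83.7% over *Hprt*, 71.2% over *Polr2a*, 70.6% over *Gapdh* and 68.5% over *B2m*. In TMM-scaled CPM it was at 89.3% of the control (log2 fold change -0.16, adjusted p = 0.191). For *Hnrnpa2b1* the groups overlapped over *Tbp*, *Ppia* and *Gapdh* and did not over *Hprt*, *Polr2a* and *B2m*.

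A single reference gene was also used in place of the TMM factors in the fit of all genes, so that the library factor of each sample was the count of that gene. The median log2 fold change of all tested genes was then 0.46 with *Actb*, 0.67 with *Actg1*, 0.07 with *Tbp*, 0.06 with *Ppia*, -0.09 with *Hprt*, -0.26 with *Gapdh*, -0.31 with *Polr2a* and -0.38 with *B2m*, against 0.01 with TMM. The number of genes called and their balance differed as well. With TMM 1069 genes were called, 530 higher and 539 lower. With *Actb* 1253 genes (8.62%) were called, 1205 of them higher, and with *Actg1* 7385 (50.8%), 7329 of them higher. With *B2m* the calls were 3152 (21.7%), 3069 of them lower, and with *Polr2a* 1792 (12.3%), 1686 of them lower.

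With *Hprt*, *Tbp* and *Ppia* the calls were divided less unequally. With *Hprt* 824 genes (5.67%) were called, 193 higher and 631 lower, with *Tbp* 904 (6.22%), 590 higher and 314 lower, and with *Ppia* 506 (3.48%), 366 higher and 140 lower. Factors from all 8 genes gave 877 calls (6.04%), 464 higher and 413 lower. *Gapdh* left 34 genes (0.234%), 17 in each direction, and 938 at an unadjusted p under 0.05. With the replicate block the counts were higher throughout. They were then 3954 with TMM, 7658 (52.7%) with *Actb*, 10564 (72.7%) with *Actg1*, 334 (2.3%) with *Gapdh*, 8228 (56.6%) with *B2m*, 3680 (25.3%) with *Hprt*, 4042 (27.8%) with *Tbp*, 4063 (28%) with *Ppia*, 6339 (43.6%) with *Polr2a* and 3858 (26.6%) with all 8.

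**Figure D3:**
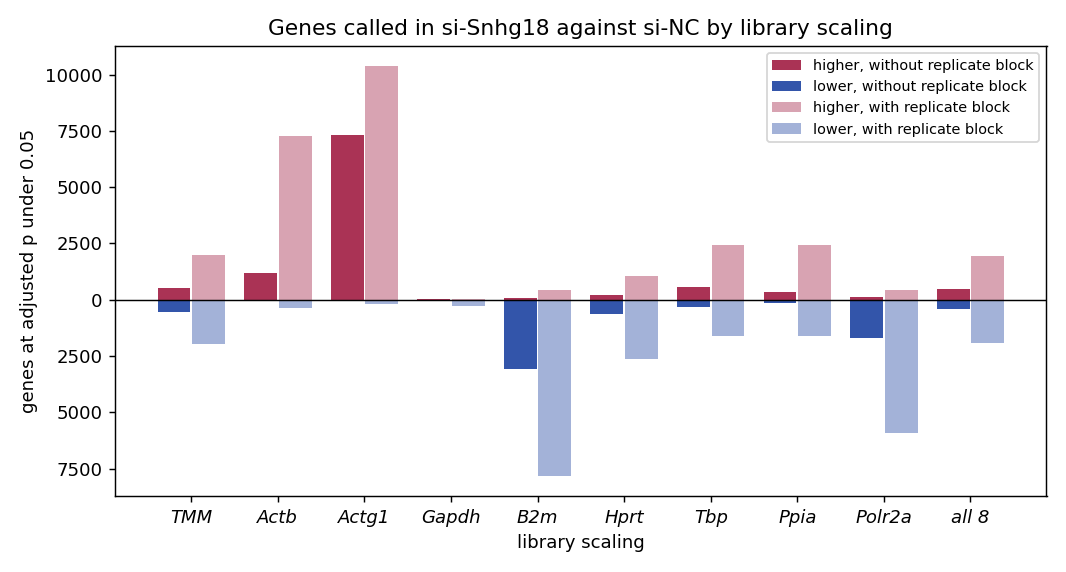
Genes called at an adjusted p under 0.05 in si-Snhg18 against si-NC, higher above the line and lower below it, with the libraries scaled by TMM, by each reference gene or by all 8. Full colours are without and pale colours with the replicate block. Actb and Actg1 as scaling give nearly all calls as higher, B2m and Polr2a nearly all as lower, and Gapdh gives 34 calls without the block.

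*Snhg18* itself kept its direction in each of these fits, but not its side of the threshold. Its log2 fold change was -0.65 with *Actb* (SE 0.17, adjusted p = 0.0535), -0.44 with *Actg1* (SE 0.17, adjusted p = 0.0568) and -1.35 with *Gapdh* (SE 0.46, adjusted p = 0.316). It passed with *B2m* (-1.48, adjusted p = 0.00249), *Hprt* (-1.19, 0.00794), *Polr2a* (-1.42, 0.00879), *Tbp* (-1.03, 0.012) and *Ppia* (-1.05, 0.0289), and with all 8 (-1.09, 0.011). With the block it passed with every one of the 8, and the adjusted p was 0.000303 with *Actb*, 0.00539 with *Actg1* and 0.0144 with *Gapdh*. *Hnrnpa2b1* passed as lower with *B2m* and *Polr2a* (adjusted p = 0.0269 and 0.0475) and was higher with *Actg1* at an adjusted p of 0.0541, which was 0.00227 with the block.

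Stability was described by the SD of log2 CPM over the 6 libraries and by geNorm M, the mean SD of the log2 ratios of a gene to the other 7. Both measures gave the same order. *Tbp* came first with an SD of 0.05 and an M of 0.260, followed by *Hprt* (0.07 and 0.260), *Ppia* (0.12 and 0.279), *Polr2a* (0.22 and 0.326), *B2m* (0.24 and 0.352), *Actb* (0.31 and 0.404), *Actg1* (0.40 and 0.482) and *Gapdh* (0.42 and 0.488). The M of *Tbp* and of *Hprt* were nearly equal, as were those of *Actg1* and *Gapdh*. Among the 5611 tested genes whose log2 CPM averaged 5 or more, the median SD was 0.18. Fewer genes had a smaller SD than *Tbp* (3.15% of them), *Hprt* (9.57%) and *Ppia* (30%), and more had a smaller SD than *Polr2a* (62.4%), *B2m* (67.1%), *Actb* (80.6%), *Actg1* (89.2%) and *Gapdh* (90%). *Tbp* itself, at 18 to 19.9 CPM, lay under this limit and is not among the 5611 genes.

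Counting error sets a lower limit to such spreads. The CV of *Tbp* was 3.54%, below the 4.78% that its read counts alone would give, so its spread cannot be told from counting error at this depth. For *Hprt* the CV was 4.94% against 2.4% from counting, and for *Ppia* 8.25% against 0.836%. The CVs of the other 5 were 15.3% to 32.5%, with a counting error of 0.406% to 1.4%. Part of the spread lay between the groups: within groups the pooled SD was 0.21 for *Actg1* against 0.40 over all 6 libraries, and 0.12 for *B2m* against 0.24. For *Gapdh* it was 0.42 on both measures, and without si-*Snhg18* 3 the SD of *Gapdh* over the remaining libraries was 0.22. *Ppia* varied mostly with the replicate number: after the mean of each number was removed its SD was 0.04.

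**Figure D4:**
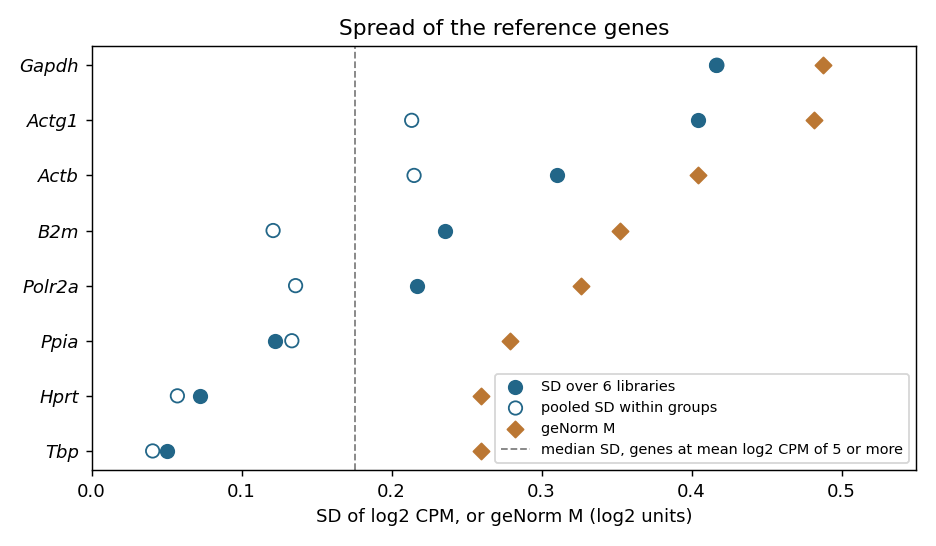
Spread of the 8 reference genes in log2 units. Filled circles are the SD of log2 CPM over 6 libraries, open circles the pooled SD within groups, and diamonds geNorm M. The dashed line is the median SD of 5611 genes. The filled circles of Tbp, Hprt and Ppia lie to the left of the line and those of the other 5 genes to its right, as do all diamonds.

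The 28 ratios between pairs of members ranged widely, and in 14 of them the groups did not overlap. The pairs share 8 genes, and *Actb*, *Actg1*, *B2m* and *Polr2a* did not overlap in CPM by themselves. These are therefore not 14 separate differences. In CPM the groups did not overlap for 30.9% of all tested genes, and no share over pairs of other genes was computed. The smallest SD of a log2 ratio was that of *Hprt* to *Tbp*, 0.10, with ratios from 3.61 to 4.32. Even there the groups did not overlap, with 3.78, 3.61 and 3.86 in si-NC and 4.22, 4.32 and 4.01 in si-*Snhg18*. The largest SD was that of *Actg1* to *Gapdh*, 0.76, with ratios from 2.60 in si-*Snhg18* 3 to 10.4 in si-NC 2. The ratio of *Ppia* to *Polr2a* was 2.51, 2.34 and 2.35 in si-NC and 1.81, 1.87 and 1.87 in si-*Snhg18*, a difference of 0.37 on the log2 scale with a pooled SD of 0.05. The ratio of *B2m* to *Polr2a*, by contrast, overlapped between groups and ran from 1.43 to 2.05.

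**Figure D5:**
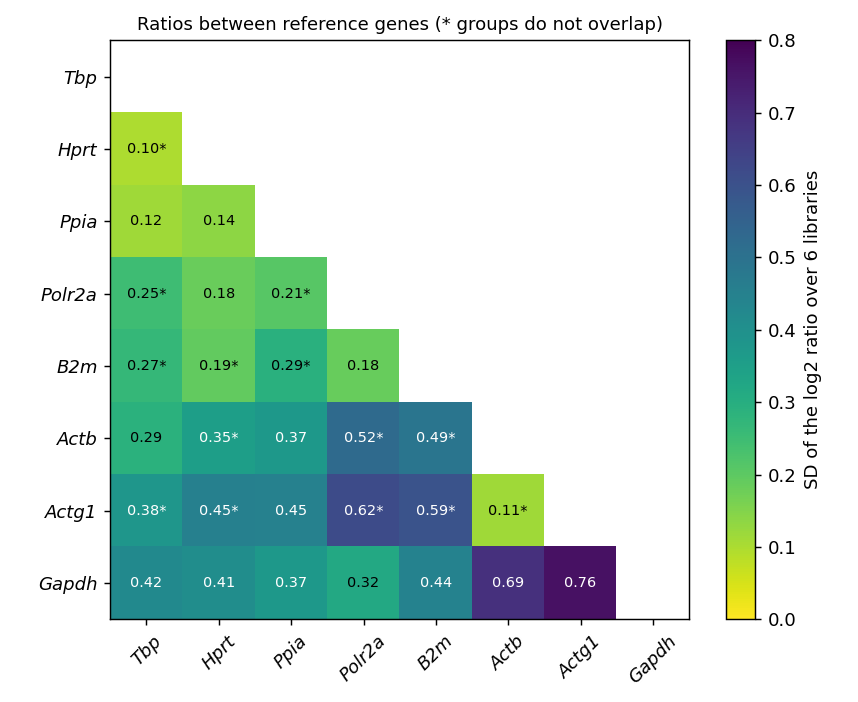
SD of the log2 ratio of read counts over 6 libraries for each of the 28 pairs of reference genes, from yellow (low) to dark blue (high), with an asterisk where the groups do not overlap. The lowest value is that of Hprt and Tbp (0.10), followed by the pair of actins (0.11), and the highest is that of Actg1 and Gapdh (0.76).

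Of 34 other common reference genes, all tested, 16 were higher and 18 lower in si-*Snhg18*, with a median log2 fold change of -0.003 and a median SD of log2 CPM of 0.12. Past the threshold were 3, all lower, against 7.36% of all tested genes. The adaptor protein gene *Ywhaz* fell by 0.32 (adjusted p = 0.0408), the endoplasmic reticulum chaperone *Canx* by 0.38 (adjusted p = 0.0427) and the retromer subunit *Vps29* by 0.32 on the log2 scale (adjusted p = 0.0488). With the block 8 passed, 1 higher and 7 lower, against 27.2% of all tested genes. Of the 5611 genes the 5 with the smallest SD over the 6 libraries were *Atp5d*, *Gsn*, *Serinc1*, *Gpat4* and *Srm*, with SDs of 0.01 to 0.02. They were picked out of all genes for that value in these libraries.

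Likeness to a member was measured as the SD of the log2 ratio of counts over the 6 libraries, among the same 5611 genes. Those closest to *Actb* were *Parp3*, *Acp1* and *Nup160*, with SDs of 0.03, 0.04 and 0.05 against 0.11 for *Actg1*. The closest gene was *Gart* for *Actg1* (0.05), *Manba* for *B2m* (0.06), *Wdr43* for *Hprt* (0.03), *Josd1* for *Tbp* (0.03), *Ppp2r2a* for *Ppia* (0.02) and *Ccnyl1* for *Polr2a* (0.01). For *Gapdh* it was *Gm7336* (0.09), one of its own copies. Library size cancels in these ratios. Each closest gene was picked as the smallest SD among the 5611 genes in these same 6 libraries, so a small value does not show a link. Counting error, with a CV of 4.78% for *Tbp* alone, was not computed for the ratios, and some of these SDs may lie below it.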

How the data were processed

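The authors prepared the mRNA libraries with a stranded TruSeq kit and deposited whole-number counts of reads per gene, not normalized, with exon lengths and GRCm38 positions. The submitters' processing notes list HISAT2 and mm10. The counting program, its strand setting and its handling of reads that match several places are not given in the sources used here. The 8 genes, the lists of related genes and the tests were chosen with earlier results of these data known.

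Groups and replicate numbers came from the labels. The count columns name the knockdown in a shortened form, which was read as si-*Snhg18* with the same numbers as the sample titles. Counts were tested in R 4.3.3 with edgeR 4.0.16 (filterByExpr with a minimum count of 10, TMM factors, glmQLFit and glmQLFTest, Benjamini-Hochberg adjustment over 14531 genes, common biological coefficient of variation 0.218), and with DESeq2 1.42.0 as an alternative. Intervals are 95%. Deviations of same-numbered libraries from their group means correlated at 0.41, 0.742 and 0.359 for numbers 1, 2 and 3. Libraries of different numbers were not compared in this way. The sources used here state no pairing, so the numbers, which come from the labels, may not mark pairs. A fit with the replicate block is given as an alternative where it changed a call. Quotients used counts as deposited, with no pseudocount. The library totals set a floor of 3 counts at 0.115 to 0.166 CPM, for counting error only. Copies were annotated pseudogenes found with blastn 2.17.0 (megablast) in the GRCm38 transcripts at 95% identity over 100 bases or more. The test was tried on counts simulated with no replicate effect and no outlying library, so the trial covers neither case.

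The named genes were set by rule: the 8 members, the study's qRT-PCR genes in mouse cells, in each list the genes that passed (at most 5) or otherwise the largest fold change in each direction, for each member the gene most like it (3 for *Actb*), the 5 genes with the smallest SD, and for each member the copy with the most reads. The other *Gapdh* copies shown were chosen after their values were seen. Alternatives were RLE factors, library totals, other filters, DESeq2, the block, 0.5 added to counts, arithmetic means and leaving out each library.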

Additional observations from a re-analysis of the deposited data

How the results depend on the processing

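The number of members called moved from 0, against 7.36% of all tested genes, to 2 with DESeq2, against 13.7%. It was 1 without a filter beyond 1 read, where 877 of 25015 genes were called. With the replicate block it was 4 in edgeR (27.2% of all tested genes) and in DESeq2 (22.9%). Leaving out single libraries gave 0 to 4 members, the 4 without si-*Snhg18* 2, where 22.1% of all tested genes were called. *Actg1* passed in DESeq2 (-0.63, adjusted p = 0.00347) and without the filter (-0.65, 0.0364), and *B2m* in DESeq2 (0.38, 0.0165). With the block in edgeR the log2 fold changes past the threshold were -0.44 for *Actb*, -0.65 for *Actg1*, 0.38 for *B2m* and 0.33 for *Polr2a*, and DESeq2 with the block gave -0.44, -0.65, 0.38 and 0.33. The block changed no other member's call.

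Leaving out single libraries gave log2 fold changes of -0.61 to -0.33 for *Actb*, -0.82 to -0.54 for *Actg1*, 0.073 to 0.64 for *Gapdh*, -0.12 to 0.026 for *Ppia* and 0.25 to 0.41 for *Polr2a*. The value of *Ppia* reversed to 0.026 without si-*Snhg18* 2.

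The count over all genes, 1069, became 1866 with DESeq2, 3127 with DESeq2 and the block, 3954 with the block in edgeR, 7385, 34, 3152, 506 and 1792 with factors from *Actg1*, *Gapdh*, *B2m*, *Ppia* and *Polr2a*, and with the block 7658, 10564, 334, 8228, 3680, 4042, 4063 and 6339 with factors from *Actb*, *Actg1*, *Gapdh*, *B2m*, *Hprt*, *Tbp*, *Ppia* and *Polr2a*, and 3858 with all 8. Single libraries left out gave 0 to 3282: 0 without si-NC 1, si-NC 3 or si-*Snhg18* 3 (2512, 2731 and 2464 at an unadjusted p under 0.05), 158 without si-NC 2, 319 without si-*Snhg18* 1 and 3282 without si-*Snhg18* 2. The cause was not tested.

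Within groups the SD was 0.21 for *Actg1*, 0.12 for *B2m* and 0.14 for *Polr2a*, and for *Ppia* 0.039 with the replicate block. With a library left out the SD was 0.22 to 0.47 for *Gapdh*, 0.040 to 0.081 for *Hprt* (lowest without si-NC 2) and 0.030 to 0.056 for *Tbp* (lowest without si-NC 1). The quotients of *Snhg18*, *Eno3* and *Hnrnpa2b1* over each member kept their direction in all alternatives run. The limits are 3 libraries a group, pairs known only by number, and reads shared between *Gapdh* or *Ppia* and their copies.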

Other observations

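Some values of the marker lists belong to no comparison above. Among 4 tested endothelial markers 3 were higher and 1 lower and none passed in edgeR, with 1 at an unadjusted p under 0.05 and 0 called by DESeq2, while with the replicate block 1 passed, *Tek*. The largest differences were those of *Kdr* at 1.04 and *Tek* at -1.47 on the log2 scale (adjusted p = 0.247 and 0.1, and 0.157 and 0.0341 with the block), both at or under about 1.2 CPM. Of 2 tested leukocyte markers, *Cd68* stood at 0.35 and *Csf1r* at -0.14 (adjusted p = 0.466 and 0.864, and 0.265 and 0.476 with the block), with 0 at an unadjusted p under 0.05 and 0 called by DESeq2, and *Adgre1* and *Cd3e* had no read in any library. Of 4 tested fibroblast markers none passed, with 1 at an unadjusted p under 0.05 and 0 called by DESeq2, while with the block 1 passed, *Pdgfra* (-0.34, adjusted p = 0.0112, against 0.189 without it), and DESeq2 with the block also called 1. The extremes were *Dcn* at 0.06 and *Lum* at -0.43 (adjusted p = 0.807 and 0.643). The only tested epithelial marker, *Krt18*, went from 12.1 to 3.50 CPM (adjusted p = 0.226), with 0 by DESeq2 and 0 at an unadjusted p under 0.05, but it passed with the block (adjusted p = 0.00216) and in DESeq2 with the block. Over all tested genes these shares were 24.9% at an unadjusted p under 0.05, 13.7% by DESeq2, 27.2% with the block and 22.9% by DESeq2 with the block.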
